A study of Mus musculus with 6 samples.

Results

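The colony stimulating factor genes of sorted mouse T follicular helper (Tfh) cells are described here. They comprise the ligands *Csf1*, *Csf2* and *Il3* and the receptor genes *Csf1r*, *Csf2ra* and *Csf2rb*, 6 of the 25730 genes that could be read in all 6 RNA sequencing libraries. The genes were chosen by name, around *Csf1*, whose deposited FPKM in this same comparison were already known to be higher in Bob1KO cells. The values of the 6 genes between the groups are therefore a description and carry no P value. The data comprised 3 Bob1KO libraries from FoxP3 GFP/DTR CD4Cre/+Bob1fl/fl mice, set against 3 WT libraries from FoxP3 GFP/DTR CD4+/+Bob1fl/fl mice. Both groups carried the GFP/DTR reporter at *Foxp3* and the floxed Bob1 alleles, so that "WT" cells are floxed cells without Cre. Cre was driven by the *Cd4* promoter, which acts in developing T cells, and deletion therefore precedes the Tfh stage and is not limited to it. Mice were 6 to 12 weeks old on a C57BL/6 background and were given 100 µg of the hapten-protein conjugate NP-CGG in complete Freund's adjuvant. On day 7, GFP-CD3+CD4+CXCR5+PD-1+ cells were sorted from spleens, with 10 to 12 mice in each experiment. RNA was amplified from 0.7 ng per library. Values are FPKM, fragment numbers scaled for the length of the transcript and the depth of the library.

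Colony stimulating factors are secreted proteins named for the blood cell colonies that they support. CSF1 (M-CSF) acts through the receptor tyrosine kinase CSF1R and sustains monocytes and macrophages. GM-CSF, the product of *Csf2*, and IL-3 act through receptors that pair an alpha chain of their own with a common beta chain and signal through JAK2 and STAT5. Activated T cells are a known source of GM-CSF and IL-3, and some make CSF1. Bob1, encoded by *Pou2af1*, is a coactivator that works with the octamer-binding proteins Oct-1 and Oct-2.

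The promoters of the 3 ligands are printed because *Csf1* was well expressed in these cells while *Csf2* and *Il3* were at or near 0. They are the RefSeq sequences of GRCm38.p6, from 250 bases before to 50 bases after the annotated start of the gene, on the strand of the gene. All 3 genes lie on the minus strand, with the windows at chr3:107760420-107760719 for *Csf1*, chr11:54249850-54250149 for *Csf2* and chr11:54267230-54267529 for *Il3*. Capitals mark matches to the NF-kB motif GGANTTTCC and to the GC box GGGCGG on either strand.
Csf1: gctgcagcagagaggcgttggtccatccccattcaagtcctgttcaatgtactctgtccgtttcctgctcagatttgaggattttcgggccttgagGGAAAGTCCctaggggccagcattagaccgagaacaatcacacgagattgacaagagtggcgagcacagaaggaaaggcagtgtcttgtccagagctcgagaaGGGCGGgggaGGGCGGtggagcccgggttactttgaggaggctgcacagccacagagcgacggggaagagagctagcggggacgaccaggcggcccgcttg
Csf2: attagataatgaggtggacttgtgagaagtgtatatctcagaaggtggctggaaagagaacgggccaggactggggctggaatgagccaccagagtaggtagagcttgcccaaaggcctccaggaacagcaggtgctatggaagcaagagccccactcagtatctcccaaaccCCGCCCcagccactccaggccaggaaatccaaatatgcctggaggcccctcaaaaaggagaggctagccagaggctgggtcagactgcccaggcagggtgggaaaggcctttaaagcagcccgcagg
Il3: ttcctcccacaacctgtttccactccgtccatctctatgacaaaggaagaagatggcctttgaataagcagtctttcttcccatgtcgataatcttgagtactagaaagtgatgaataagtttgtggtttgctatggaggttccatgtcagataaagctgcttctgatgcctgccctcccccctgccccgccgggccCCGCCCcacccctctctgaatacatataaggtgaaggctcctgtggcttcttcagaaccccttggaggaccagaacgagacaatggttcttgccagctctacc

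The *Csf1* window held 1 NF-kB match, which began 154 bases before the start, and 2 GC boxes 51 and 41 bases before it. The *Csf2* and *Il3* windows each held 1 GC box and no NF-kB match. Among 32851 RefSeq promoters of the same length, 1.25% had the NF-kB motif and 35.7% a GC box. The NF-kB match in *Csf1* overlaps a match to the NFAT core GGAAA, which 61.3% of all promoters had. That core also matched in the windows of *Csf2*, *Il3* and *Csf2ra*. The octamer ATTTGCAT, the letters read by the proteins that Bob1 binds, was found in 0 of the 4 members with an entry (*Csf1*, *Csf2*, *Il3* and *Csf2ra*), and in 1.74% of all promoters. Of the other motifs searched on both strands, AP-1 (TGANTCA, 7.81% of all promoters), STAT (TTCNNNGAA, 8.30%), the core of the TATA box (TATAAA, 13.6%) and the E-box CACGTG (7.15%) had no match in these 4 windows. The RUNX motif TGTGGT (16.8%) matched in *Il3* alone of the 4. The 9 motifs were chosen after the sequences had been seen, and a match in letters is a description, not a binding site.

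Across all genes the comparison gave few calls. Genes were tested with limma where their mean over the 6 libraries was 1 FPKM or more. Of 10284 such genes it called 2 at an adjusted P of 0.05, or 0.0194% of them, and 547 (5.32%) at an unadjusted P of 0.05. Of the 547, 325 were higher and 222 lower in Bob1KO. The 2 called genes were *Pcsk1*, which rose, and *Pou2af1*, the deleted gene, which fell. The replicate numbers were taken as pairs from the correlation between libraries, although the labels do not say what a number shares. With that pairing as a block only *Pou2af1* was called at the adjusted P, and 389 genes were higher and 245 lower at the unadjusted P. Standard errors and P values are from the fit without the block unless it is named. The number called was 1 without Bob1KO replicate 1, 1 without Bob1KO replicate 3, 7 without WT replicate 1, 0 without WT replicate 2 and 4 without WT replicate 3. *Pou2af1* had 1.16, 0.237 and 0.317 FPKM in Bob1KO libraries 1, 2 and 3, against 46.1, 32.5 and 34.4 FPKM in the WT libraries, as their labels say. The approximate depth was 17200000 to 24500000 mapped fragments in Bob1KO libraries and 18800000 to 21400000 in WT libraries. Tfh marker genes summed to 3504 to 4281 FPKM in Bob1KO libraries and 3259 to 4375 FPKM in WT libraries, with *Tcf7*, *Cd3e* and *Pdcd1* the most abundant. Both libraries numbered 2 held transcripts of Y-linked genes and the other 4 held none.

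*Csf1*, on chromosome 3 (chr3:107741048-107760469, GRCm38), was the ligand that these Tfh cells expressed. It had 32.4, 22.4 and 15.8 FPKM in Bob1KO libraries 1, 2 and 3, against 10.5, 4.76 and 6.25 FPKM in WT libraries 1, 2 and 3. Every Bob1KO library was above every WT library, with 15.8 FPKM as the lowest Bob1KO and 10.5 FPKM as the highest WT value. The means were 23.5 ± 8.40 FPKM in Bob1KO and 7.18 ± 2.99 FPKM in WT (SD, n = 3 each), a ratio of 3.28. On the scale of log2(FPKM + 1) the difference, Bob1KO minus WT, was 1.59 with a standard error of 0.328, or 0.191 with the replicate block. Between libraries of the same number the ratio was 3.08, 4.72 and 2.52 for numbers 1, 2 and 3. The intervals that Cufflinks attached to the values, which cover the estimate within a library only, spanned 14.6 to 34.2 FPKM over the Bob1KO libraries and 4.25 to 11.3 FPKM over the WT libraries and did not meet. In the table that the authors made on 1 common assembly, the group values were 29.4 FPKM for Bob1KO and 8.95 FPKM for WT.

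*Csf1* lay near the middle of the tested genes in abundance and near the top in its difference. Its mean over the 6 libraries was above that of 50.4% of the tested genes. Its log2 difference ranked 33rd from the highest among the 10284. In 601 genes, 5.84% of those tested, every Bob1KO library was above every WT library, and *Csf1* is one of them by the way it was chosen. Leaving out each library in turn gave a log2 difference of 1.34 to 1.87, and leaving out both libraries numbered 2 gave 1.37. RNA was measured in bulk, so that a larger share of *Csf1*-expressing cells and more *Csf1* RNA per cell cannot be told apart.

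**Figure D1:**
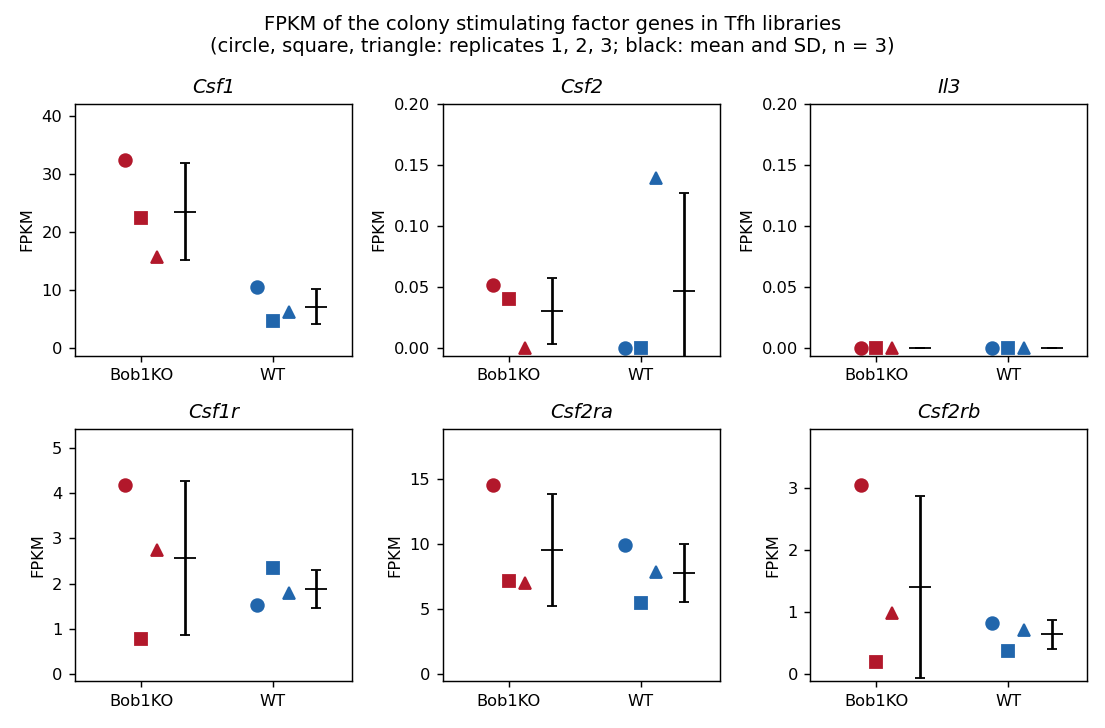
FPKM (linear axis, a separate scale for each gene) of the 6 colony stimulating factor genes in 3 Bob1KO libraries (red, left) and 3 WT libraries (blue, right), with circles, squares and triangles for replicates 1, 2 and 3 and black marks for the mean and SD. The groups are apart for *Csf1* (15.8 to 32.4 against 4.76 to 10.5 FPKM) and overlap for the receptor genes, and *Csf2* and *Il3* lie at or near 0.

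*Csf2*, which encodes GM-CSF (chr11:54247270-54249899), was at 0.0514, 0.0404 and 0 FPKM in Bob1KO libraries and 0, 0 and 0.140 FPKM in WT libraries. All 3 values above 0 have a Cufflinks interval that reaches 0, and no fold is given. *Il3*, its neighbour on the same chromosome (chr11:54265085-54267279), was listed at 0 in all 6 libraries. Both genes fell below the filter on low values, so that a difference was not detectable at this depth. Of the 3 ligands, *Csf1* alone was above 1 FPKM in any library.

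Among 29 T cell cytokine genes ordered by mean FPKM, *Csf1* stood 14th in Bob1KO cells and 17th in WT cells. In single libraries its place was 13th, 14th and 14th in Bob1KO and 15th, 20th and 18th in WT. In Bob1KO cells its mean lay between those of *Lta* (lymphotoxin alpha, 30.1 ± 2.04 FPKM) and *Osm* (oncostatin M, 12.6 ± 0.605 FPKM). The *Lta* values overlapped those of *Csf1*, and the *Osm* values lay below all of them. In WT cells its neighbours were *Xcl1* (7.71 ± 2.05 FPKM), a chemokine for cross-presenting dendritic cells, and *Il22* (6.87 ± 5.51 FPKM), and the 3 genes overlapped. Of the 21 other cytokine genes that were tested, 10 had a positive and 11 a negative difference, with a median of -0.089 against -0.0032 for all tested genes. None passed the adjusted P in limma. At an unadjusted P of 0.05, 3 were higher and 2 lower, against 325 higher and 222 lower of all 10284 tested genes. With the replicate block 3 were higher and 4 lower at that P, against 389 and 245 of all tested genes. The smallest P belonged to *Spp1* (osteopontin), with a log2 difference of 2.73 (adjusted P = 0.238, or 0.0786 with the replicate block). It had 347, 111 and 147 FPKM in Bob1KO and 39.9, 21.5 and 20.2 FPKM in WT. *Tnfsf8* (CD30 ligand; 0.48, adjusted P = 0.571) and *Sostdc1* (1.71, adjusted P = 0.855), an antagonist of BMP and Wnt signals, came next. The lower genes at that P were the chemokine genes *Ccl5* (log2 difference -1.72) and *Ccl4* (-1.68), which are named here after their values were seen, and with the block *Il4* and *Ccl3* as well.

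**Figure D2:**
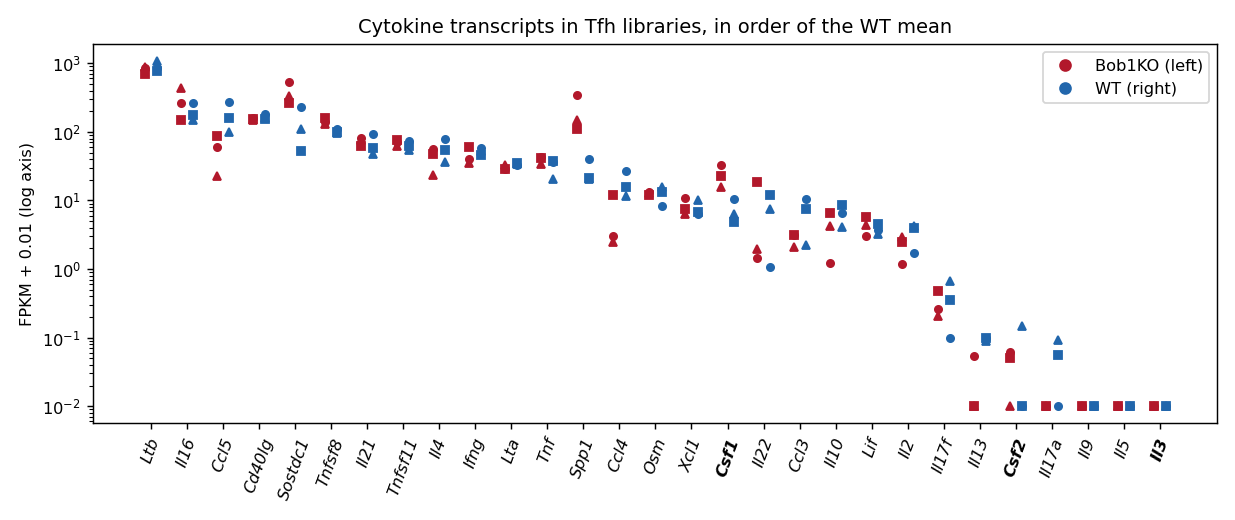
FPKM plus 0.01 on a log axis for 29 cytokine genes, in order of the WT mean, with Bob1KO libraries (red) left of WT libraries (blue) and a point for each library. *Csf1* stands 17th by the WT mean and 14th by the Bob1KO mean, while *Csf2* and *Il3* (bold) are among the lowest.

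The receptor genes were expressed at lower levels than *Csf1* in Bob1KO cells, and none of them separated the groups. *Csf1r*, which encodes the receptor of CSF1, had 4.18, 0.766 and 2.75 FPKM in Bob1KO libraries 1, 2 and 3, against 1.53, 2.35 and 1.78 FPKM in the WT libraries. Bob1KO replicate 1 was the highest and Bob1KO replicate 2 the lowest of all 6, with the WT libraries between them. The log2 difference was 0.18 with a standard error of 0.396, and it turned to -0.16 without Bob1KO replicate 1. It was 0.62 without Bob1KO replicate 2, 0.73 without both libraries numbered 2 and between 0.076 and 0.29 when any other library was left out.

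*Csf2ra*, the alpha chain of the GM-CSF receptor (chr19:61224402-61228418), was the most abundant of the 3 member receptor genes. It had 14.5, 7.11 and 7.00 FPKM in Bob1KO libraries and 9.92, 5.48 and 7.88 FPKM in WT libraries. Bob1KO replicate 1 was again the highest, and the other values of both groups overlapped. The log2 difference was 0.23 with a standard error of 0.313, and -0.088 without Bob1KO replicate 1. It was 0.026 without WT replicate 2 and between 0.25 and 0.40 when any other library was left out. Where a second assembled transcript unit runs across the gene in a library, that unit was not counted for it.

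*Csf2rb*, the common beta chain (chr15:78325990-78351001), was low. It had 3.05, 0.191 and 0.986 FPKM in Bob1KO libraries and 0.825, 0.364 and 0.713 FPKM in WT libraries, and the groups overlapped. Its mean of 1.02 FPKM passed the filter through Bob1KO replicate 1 alone, and without that library it was not tested. The log2 difference was 0.39 with a standard error of 0.445. It was 0.81 without Bob1KO replicate 2, 0.68 without both libraries numbered 2 and between 0.26 and 0.47 when any other library was left out. *Csf2rb2*, a mouse paralog of the beta chain that pairs with the IL-3 receptor, had at most 0.352 FPKM, and reads of the 2 similar genes may not be fully separated. Of the 6 members, 4 were tested and 2 (*Csf2* and *Il3*) were below the filter.

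In order of the mean, the members in Bob1KO cells were *Csf1* (23.5 FPKM), *Csf2ra* (9.54), *Csf1r* (2.57), *Csf2rb* (1.41), *Csf2* (0.0306) and *Il3* (0). *Csf1* and *Csf2ra* did not overlap in Bob1KO, and *Csf1r* and *Csf2rb* did. In WT cells the order was *Csf2ra* (7.76 FPKM), *Csf1* (7.18), *Csf1r* (1.89), *Csf2rb* (0.634), *Csf2* (0.0465) and *Il3* (0). There *Csf2ra* and *Csf1* overlapped and *Csf1r* and *Csf2rb* did not.

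Other receptor genes of the family overlapped between the groups as well. *Il3ra*, the alpha chain of the IL-3 receptor, had 17.1, 9.57 and 9.42 FPKM in Bob1KO and 12.3, 10.4 and 8.18 FPKM in WT (log2 difference 0.17, adjusted P = 0.963; -0.091 without Bob1KO replicate 1). *Csf3r*, the receptor of G-CSF and a gene of neutrophils, had 8.09, 0.595 and 1.52 FPKM in Bob1KO and 1.25, 1.48 and 1.31 FPKM in WT (0.50, adjusted P = 0.956; -0.23 without Bob1KO replicate 1 and 1.03 without Bob1KO replicate 2). *Csf3* and *Il5* were listed at 0 in every library, and *Il34*, the other ligand of CSF1R, had at most 0.0320 FPKM. Thus 2 of the 9 further family genes were tested, both with a positive difference and neither called.

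Transcripts of myeloid cells varied widely between the libraries, and their highest and lowest library were those of *Csf1r*, *Csf2rb* and *Csf3r*. *Csf3r* is itself among the neutrophil and monocyte markers and is part of their sum, with at most 8.09 FPKM. *Csf1* shared the highest library but not the lowest. All 17 neutrophil and monocyte marker genes that were matched (of 19 listed) were detected, and their summed level was 5039, 119 and 1628 FPKM in Bob1KO libraries 1, 2 and 3, against 788, 608 and 1121 FPKM in WT libraries. *S100a8*, *S100a9* and *Ngp*, which encode granule and calcium-binding proteins of neutrophils, led this list. *S100a8* alone had 2027, 35.5 and 567 FPKM in Bob1KO and 294, 254 and 447 FPKM in WT. Bob1KO replicate 1 was thus the highest and Bob1KO replicate 2 the lowest library. *Csf1* in Bob1KO replicate 2, where these markers were lowest, was 22.4 FPKM and above every WT value.

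Macrophage and dendritic cell markers summed to 28.4, 10.5 and 25.2 FPKM in Bob1KO and 15.5, 12.7 and 16.2 FPKM in WT. Of the 17 genes, 10 were below 1 FPKM in every library, and *Clec9a* was at 0 in all 6. *Emr1* (F4/80), a defining macrophage gene, had at most 0.583 FPKM, while *Cd68*, *C1qc* and *C1qb* led the list. Basophil and mast cell markers summed to 36.2, 4.78 and 14.0 FPKM in Bob1KO and 7.63, 6.89 and 9.19 FPKM in WT, led by *Hdc*, *Prss34* and *Mcpt8*. B cell and plasma cell markers summed to 77.1, 30.0 and 53.2 FPKM in Bob1KO and 48.2, 26.6 and 26.3 FPKM in WT, with *Cd22*, *Igj* and *Cd79b* at the head. NK and CD8 T cell markers, led by *Nkg7*, *Klrb1c* and *Eomes*, summed to 101 to 149 FPKM in Bob1KO and 109 to 164 FPKM in WT. Tfr cell markers, led by *Ikzf2*, *Il10* and *Prdm1*, summed to 67.5 to 80.8 FPKM in Bob1KO and 59.7 to 105 FPKM in WT. Of the 5 listed, 4 were matched, and *Foxp3*, the defining gene, was not. *Ikzf2* at 48.4 to 96.2 FPKM made up most of the sum, which is therefore no measure of Tfr cells. The part of these other cells in the *Csf1* and receptor values was not tested.

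**Figure D3:**
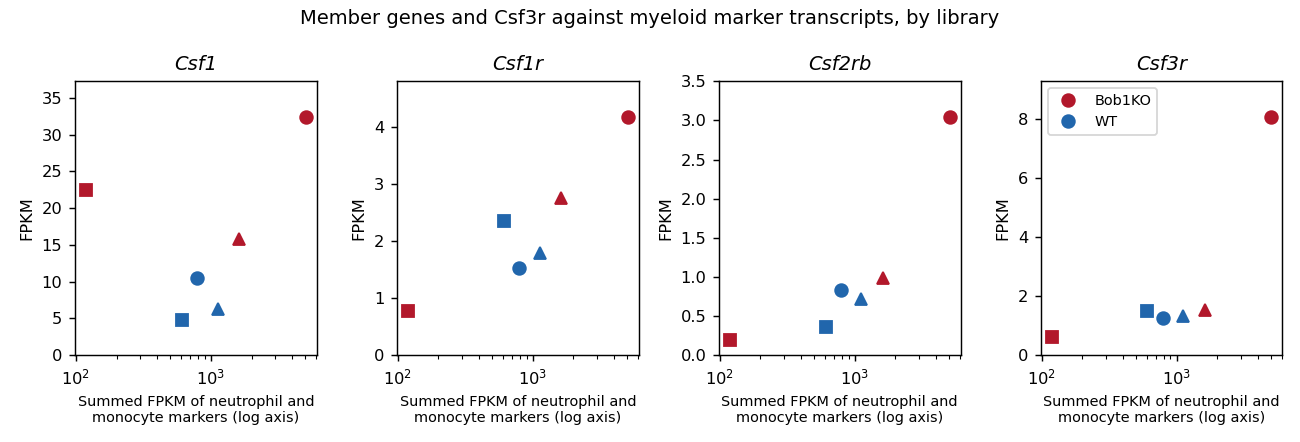
FPKM of *Csf1*, *Csf1r*, *Csf2rb* and *Csf3r* (linear axes) against the summed FPKM of the neutrophil and monocyte markers (log axis), a point for each Bob1KO (red) and WT (blue) library, with circles, squares and triangles for replicates 1, 2 and 3. The 3 receptor genes are highest at 5039 FPKM of markers and lowest at 119 FPKM, both Bob1KO libraries. *Csf3r* is itself among the markers that were summed. *Csf1* is also highest at 5039 FPKM of markers (32.4 FPKM) and is 22.4 FPKM at 119 FPKM of markers.

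Genes that transmit the signal of these receptors showed no call. Of 34 tested signalling genes, from JAK2 and STAT5 to the RAS, PI3K and SOCS families, 20 had a positive and 14 a negative difference, with a median of 0.081 against -0.0032 for all tested genes. In limma 0 passed the adjusted P and 0 the unadjusted P. *Stat5a*, a transcription factor that the beta chain activates, had 30.2, 30.4 and 31.9 FPKM in Bob1KO and 27.9, 25.1 and 26.9 FPKM in WT (log2 difference 0.20, adjusted P = 0.945). The phosphatase gene *Ptpn11* (-0.36, adjusted P = 0.941) was also among those with the smallest P values. *Stat5a* and *Stat3* were higher in every Bob1KO library, as were 5.84% of all tested genes. *Grb2* (log2 difference -0.18) and *Dok1* (-0.20) had negative differences, with an adjusted P of 0.946 each, and *Stat5b* overlapped between the groups. *Stat3*, *Dok1* and *Stat5b* are named here after their values were seen. Among 14 tested genes that release CSF1 from the membrane or act with CSF1R, 9 had a positive and 5 a negative difference. Their median was 0.079 and there were 0 calls at either P. With the replicate block 1 was called at the unadjusted P, against 389 higher and 245 lower of all 10284 tested genes. It was *Cebpa*, higher, a myeloid transcription factor gene named after its values were seen. The smallest P values there were those of *Rhbdf2*, a partner of the sheddase ADAM17 (0.29, adjusted P = 0.946), of *Runx1*, a regulator of *Csf1r* (0.23, adjusted P = 0.946), and of the adaptor *Grb2* (-0.18, adjusted P = 0.946).

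Genes that regulate colony stimulating factor genes in T cells were split in direction as well. Of 36 tested, 20 had a positive and 16 a negative difference, and the median was 0.071. In limma 0 passed the adjusted P. At an unadjusted P of 0.05, 3 were higher and 1 was lower, against 325 higher and 222 lower of all 10284 tested genes. With the replicate block 4 were higher and 0 lower at that P, against 389 and 245 of all tested genes. There *Bhlhe40* and *Nfkb1* still passed, *Irf4* and *Irf8* did not, and *Nfatc2* and *Fosl2*, named after their values were seen, were added. *Bhlhe40*, a repressor of *Il10* that sustains GM-CSF production in T helper cells, had 104, 102 and 72.4 FPKM in Bob1KO and 75.5, 44.2 and 57.5 FPKM in WT (log2 difference 0.66, adjusted P = 0.924). *Nfkb1*, which encodes the p50 subunit of NF-kB, had 143, 82.2 and 46.8 FPKM in Bob1KO and 49.4, 46.2 and 32.6 FPKM in WT (0.95, adjusted P = 0.930). Both genes overlapped between the groups, and both were higher in Bob1KO in all 3 pairs of the same number. With the replicate block the adjusted P was 0.74 for *Bhlhe40* and 0.531 for *Nfkb1*. *Irf4* (0.53, adjusted P = 0.930), named here after its values were seen, was the other higher gene, and *Irf8* (-0.46, adjusted P = 0.929) the lower one. Of 16 tested factors that bind AU-rich cytokine mRNAs, such as those of *Csf2* and *Il3*, 10 had a positive and 6 a negative difference, the median was 0.048 and there were 0 calls at either P. *Rc3h1* (roquin-1; 0.34), *Mapkapk2* (0.24) and *Khsrp* (0.31) had the smallest P values, with adjusted P values of 0.941, 0.941 and 0.946.

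**Figure D4:**
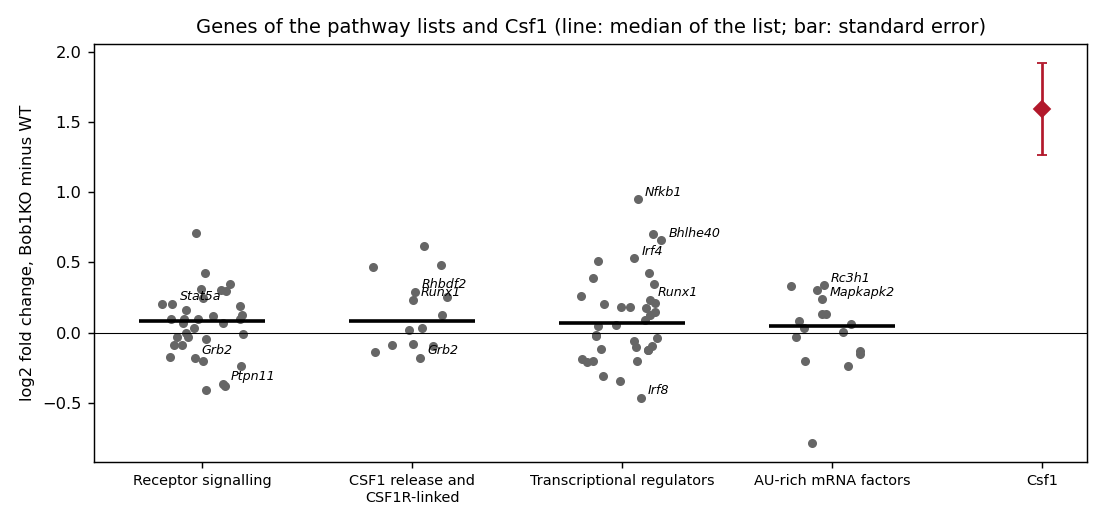
Log2 difference, Bob1KO minus WT, of each tested gene of 4 lists (grey points, black line for the median) and of *Csf1* (red, with its standard error). The medians lie between 0.048 and 0.081, and *Csf1* is at 1.59. *Csf1* was chosen with its difference already known, so its place above every listed gene is a description only.

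The genes on both sides of *Csf1* were examined next. Of 11 tested genes within 500 kb of *Csf1*, 6 had a positive and 5 a negative difference, with a median of 0.095 and a range of -0.25 to 1.42. In limma 0 passed the adjusted P and 1 the unadjusted P, which 5.32% of all tested genes passed. That gene was *Gstm1*, a glutathione S-transferase gene (chr3:108012250-108017973), with 17.4, 8.88 and 7.49 FPKM in Bob1KO and 4.03, 2.10 and 4.16 FPKM in WT (log2 difference 1.42, adjusted P = 0.553). It lies among near-identical paralogs, and its reads may be shared with them. The nearest tested gene, *Ahcyl1*, was at 0.13 (adjusted P = 0.946). The other 9 were *Fam40a* (0.095), *Gstm4* (0.29), *Ampd2* (0.15), *Cyb561d1* (0.30), *Gnai3* (-0.068), *Rbm15* (-0.065), *Hbxip* (-0.16), *Atxn7l2* (-0.21) and *Psma5* (-0.25). Within 500 kb of *Csf2*, a window that also holds *Il3*, 6 genes were tested, 3 positive and 3 negative (-0.75 to 0.24), with 0 calls at either P. They were *Irf1*, *Gm12216*, *Pdlim4*, *Fnip1*, *Rapgef6* and *Cdc42se2*.

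**Figure D5:**
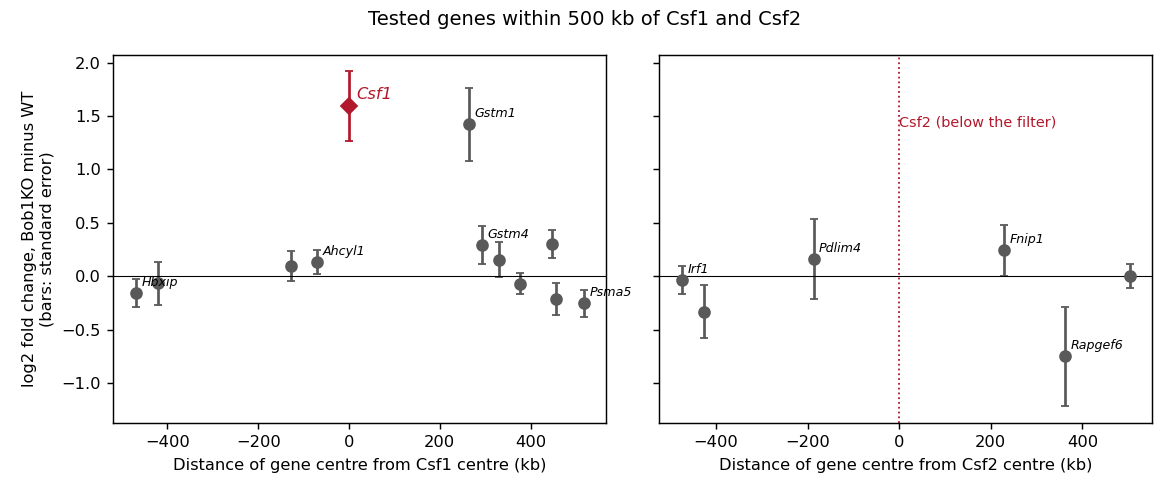
Log2 difference, Bob1KO minus WT, with its standard error, of tested genes within 500 kb of *Csf1* (left) and *Csf2* (right), against the distance between gene centres in kb. *Csf1* (red) at 1.59 and *Gstm1* at 1.42 stand above the other neighbours of *Csf1*, which lie between -0.25 and 0.30. *Csf1* was chosen with its difference already known.

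The genes most like *Csf1* were sought among 7882 genes with a mean of at least 5 FPKM, by the root mean square distance between their log2(FPKM + 1) values after each gene was centred on its mean over the 6 libraries. The distance was 0.151 for *Kirrel3*, an adhesion molecule of the immunoglobulin superfamily, 0.248 for *Gstm1*, 0.291 for *Pard6g*, a cell polarity gene, 0.304 for *Popdc2*, a cyclic AMP-binding membrane protein, and 0.308 for *Nrgn*, which encodes a calmodulin-binding protein of neurons. The median distance over all candidates was 0.918. *Kirrel3* had 18.2, 12.2 and 10.6 FPKM in Bob1KO and 6.95, 2.54 and 2.78 FPKM in WT, so that its libraries stood in the same order as those of *Csf1*. Since *Csf1* was chosen for this contrast, genes like it differ between the groups by construction.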

How the data were processed

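RNA of sorted splenic Tfh cells was sequenced in 3 Bob1KO and 3 WT libraries, grouped by the genotype in the labels. Reads were trimmed with cutadapt 1.2.1 and aligned to GRCm38 (mm10) with TopHat2 2.0.13, per the labels and the submitters' processing notes. The authors made the deposited FPKM with Cufflinks 2.2.1 on transcripts assembled in each library, and 1 table of group FPKM on a common assembly. The fold change, test statistic, P and q columns of that table were not used. For the gene annotation version, the sources used here name none.

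Rows named by the assembly held 94.1% to 95.9% of the FPKM of a library. They were therefore assigned to genes by position where row and gene shared at least 0.5 of their joint length, or where a row covered 0.95 of a gene still without one, and FPKM were summed per gene. Of the rows with a gene name, at least 99.9% went to that name. Genes without status OK (5) were left out. Genes that overlap cannot be told apart, and 9 of 229 listed genes were not matched and not analysed here.

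Log2(FPKM + 1) was fitted, for genes whose mean was 1 FPKM or more, with limma 3.58.1 (R 4.3.3) with a variance trend, the group as the only term and two-sided Benjamini-Hochberg adjusted P values over all 10284 genes, at a threshold of 0.05. A fold change on this scale understates the change of low genes. Fragments back-calculated from the Cufflinks intervals were whole for 30.9% to 35.7% of rows (tolerance 0.05), so counts were not recovered and the depth is approximate. Python 3.11.15 with pandas 2.3.3 was used for all other tables, and the fit was tested on simulated data.

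The labels give both groups replicate numbers 1 to 3. Deviations from the group means correlated at 0.123, 0.133 and 0.115 between libraries of the same number, and at -0.097 to -0.031 otherwise, so the numbers were taken as pairs. Deviations within a group cancel out, so the negative values are partly forced by the positive ones. The labels and methods do not say what a number shares. The pools are separate experiments per the study, and P values measure the spread between these pools.

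The members and lists were chosen with earlier results of these data known. Named genes were every member, *Pou2af1*, *Csf2rb2*, the genes of each list with the smallest P (up to 3) and all past the adjusted P. Also named were tested genes within 500000 bases of *Csf1* and of *Csf2*, the 5 genes most like *Csf1* and the most abundant genes of each marker list (up to 3). A gene that this rule names in the signalling list is not reported here. Alternatives were other pseudocounts, filters, scalings, matching shares and variance models, a replicate block and each library left out.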

Additional observations from a re-analysis of the deposited data

How the results depend on the processing

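*Csf1* had a log2 difference of 1.34 to 1.87 when a library was left out and 1.37 to 1.72 otherwise. Its direction held in every alternative run. Leaving out libraries or changing the pseudocount or the filter could not reverse it, because its groups do not overlap. Of the members, *Csf1r* and *Csf2ra* changed sign only without Bob1KO replicate 1, and *Csf2rb* fell below the filter without it. *Csf1r* and *Csf2rb* were not fitted with a mean FPKM of at least 5. The number of called genes was 1 with a pseudocount of 0.1, 1 with a mean FPKM of at least 5 and 1 with the replicate block, which changed no other call at the adjusted P, and 0 to 7 when a library was left out. It was 3 with no filter on low values, with quantile normalization and with median ratio scaling. The cause was not tested. The signalling median was 0.067 with a mean FPKM of at least 5, 0.063 with quantile normalization and 0.043 to 0.082 when a library was left out. Without both libraries numbered 2, a setting chosen after seeing the data, *Pou2af1* was not called, the median of the regulators was -0.011 and that of the CSF1 release genes 0.25. When a library was left out these medians ranged over 0.00044 to 0.15 and -0.028 to 0.25. The median of the AU-rich binding factors was 0.027 to 0.11 when a library was left out and 0.021 to 0.097 otherwise. No matched gene of the pathway lists was called in any of these settings, while a merged locus of *Pygo2* and the adaptor gene *Shc1*, listed for signalling but not matched on its own, was called with quantile normalization and with median ratio scaling (log2 difference 0.96 and 0.92). The 3 pools per group and FPKM without counts limit the precision, most for genes near 0 such as *Csf2* and *Il3*.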
